A study of Mus musculus with 3 samples.

Results

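Connective tissue cells are recognised by the matrix they secrete and by a few surface, contractile and regulatory proteins. A list of 39 such genes was followed here in 4T1 cells, a mouse mammary carcinoma line of epithelial type. The members were every probe set to which the platform annotation gives a listed gene as the only symbol. For 37 of the 39 genes there were 75 such probe sets, out of 18193 named genes on the array, and Fbn1 and Runx2 were not analysed here. The question was which of these genes 4T1 cells already gave a signal for in regular medium, and which appeared only after contact with MSCs, which the labels do not spell out and which commonly stands for mesenchymal stromal or stem cells.

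RNA was hybridised to 3 Affymetrix Mouse Genome 430 2.0 arrays, 1 for each culture. The co-culture array held 4T1 cells that were isolated after 1 week of contact with MSCs. The conditioned-medium array held 4T1 cells kept for 1 week with MSC-conditioned medium, without the MSCs themselves. The regular-medium array held 4T1 cells in their usual medium, for a time that the labels do not give. All cells were from the 4T1 line and its growth medium was RPMI-1640 with 10% FBS. The labels give neither the source of the MSCs nor the way the 4T1 cells were separated from them.

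Fibrillar collagens such as types I and III form the tensile fibres of stroma, type IV collagen forms the sheet under epithelia, and small proteoglycans and lysyl oxidases organise and cross-link the fibres. Fibroblasts, pericytes and MSCs make most of the fibrillar matrix in mammary tissue, while carcinoma cells commonly make basement membrane proteins of their own. Several proteins used to recognise MSCs, among them endoglin (CD105), CD73 and VCAM1, are not limited to them.

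Values are MAS5 signals, a linear brightness averaged robustly over the probes of a probe set. Signals under 42.4, the 40th percentile of all signals, were set to that floor before log2 differences were taken. A gene is called bright on an array at 149.3 or more, the 60th percentile. It is called higher or lower between 2 arrays when the signals differ at least 2-fold and the brighter one is bright. The brightest probe set by its mean over the arrays stands for a gene, and signals of different probe sets are not set against each other. There was 1 array a condition, so no difference below has a replicate error or a test, and this limits their precision. The median signal of the arrays was between 71.6 and 79.8, and the floor covered 38.0% to 41.4% of the probe sets on an array.

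The stromal list was a mixture of genes that 4T1 cells already gave a signal for and genes that stayed dim everywhere. In regular medium 13 of 37 members were bright, a share of 35.1%, beside 49.5% of all named genes. These were Col4a1, Col4a2, Col5a1, Col6a2, Fbln2, Postn, Tnc, Thbs1, Eng, Nt5e, Vcam1, Mcam and Cspg4, and 10 of them were bright on all 3 arrays, 27.0% of members beside 47.6% of all named genes. In conditioned medium 12 members were bright (49.1% of all genes) and in co-culture 14 (50.3% of all genes). At the other end, 10 members lay at or below the floor on every array, a share of 27.0%, beside 27.1% of all named genes. The remaining 10 members that were never bright had at least 1 signal above the floor.

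**Figure D1:**
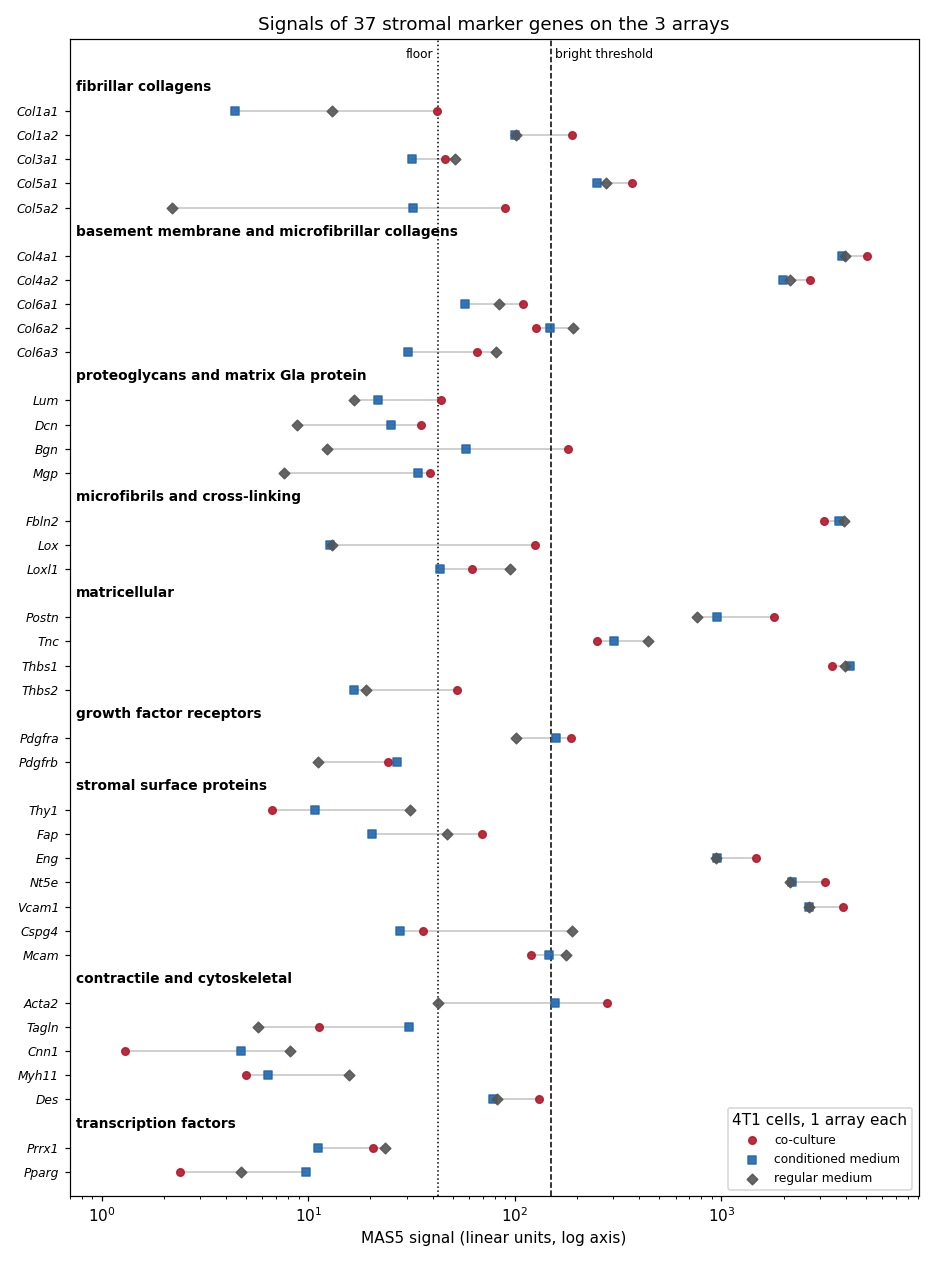
MAS5 signal on a log axis for each of 37 stromal marker genes, grouped by role, with 1 point per array for co-culture, conditioned medium and regular medium. Dotted and dashed lines mark the floor of 42.4 and the bright threshold of 149.3. Bgn and Col1a2 pass the threshold in co-culture alone, and of these only Bgn lies at least 2-fold above both other arrays. The points of 10 genes stay at or left of the floor.

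Bgn alone met the rule for appearing in co-culture only, that is, bright there, not bright on the other arrays and at least 2-fold above both. That is 1 of 37 members, or 2.7%, beside 0.605% of all named genes. Against regular medium, 3 members were called higher in co-culture, namely Acta2, Bgn and Postn, a share of 8.11% beside 3.0% of all genes. In the other direction 1 member, Cspg4, was called lower, 2.7% beside 1.42% of all genes. The 17 members that were bright on at least 1 array, 45.9% beside 52.0% of all named genes, are called measured. Their median log2 difference was 0.42 (interquartile range -0.33 to 0.89), beside 0.07 (-0.26 to 0.42) for the 9452 measured genes of the array. That choice favours genes that are high on 1 array, and over all 37 members the median was 0.00, as it was over all named genes. Among the 13 members bright in regular medium it was 0.32 (-0.556 to 0.54), beside 0.05 (-0.269 to 0.375) for the 9012 genes bright there. Of these 13 members 7 had a difference above 0 and 6 below, beside 4881 and 4129 of the 9012 genes. For all 17 the sign held when the arrays were scaled to a common median or quantile-normalized. The smallest difference, -0.21 for Thbs1, became -0.07 with median scaling.

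**Figure D2:**
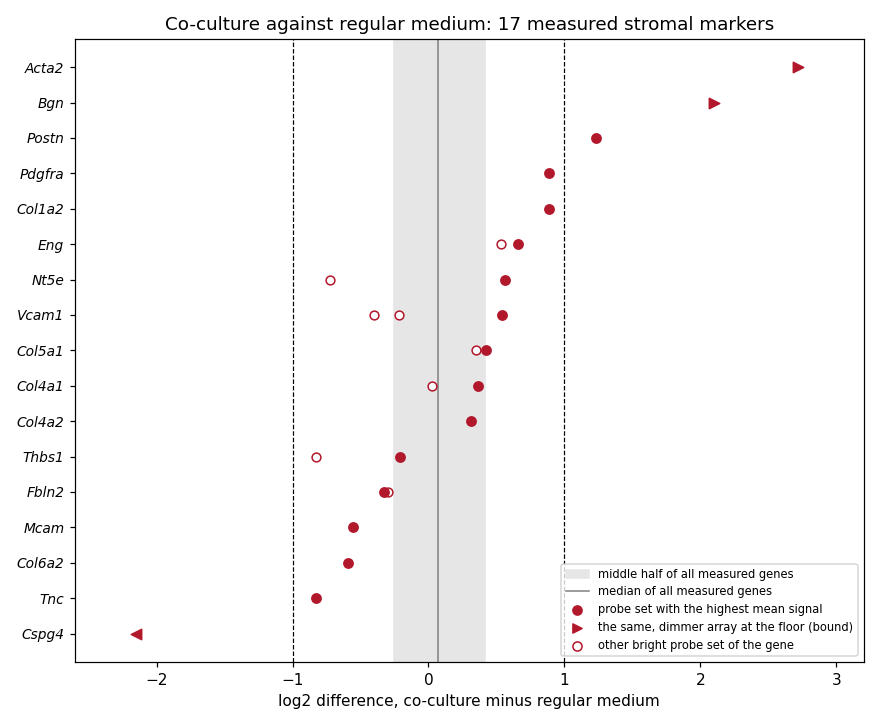
Log2 difference of co-culture minus regular medium for the 17 measured members, from Acta2 at the top to Cspg4 at the bottom. Filled points are the probe set that is brightest on average, arrowheads are bounds with 1 array at the floor, open points are other bright probe sets of the gene, grey shading is the interquartile range of all measured genes, and dashed lines are 2-fold. Nt5e and Vcam1 have open points on the other side of 0 from their filled point.

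Among the fibrillar collagens, the main tensile collagens of stroma were dim. Col1a1, the alpha-1 chain of type I collagen, had signals of 41.9 in co-culture, 4.4 in conditioned medium and 13.0 in regular medium, all under the floor. Its other probe set gave 4.9, 20.8 and 31.1 in the same order of arrays. Col3a1, the chain of type III collagen, had 45.7 in co-culture, 31.8 in conditioned medium and 51.6 in regular medium, within a few units of the floor or below it.

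Col1a2, which encodes the partner chain of type I collagen, had 188.2 in co-culture, 100.1 in conditioned medium and 101.8 in regular medium. It was thus bright in co-culture alone but 1.85-fold above regular medium, short of the 2-fold rule. A dimmer Col1a2 probe set had 56.4 in co-culture, with 22.0 in conditioned medium and 36.5 in regular medium, and the remaining Col1a2 probe set lay at 7.0 or less on every array.

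Type V collagen regulates the diameter of type I fibrils. Col5a1 had 371.1 in co-culture, 249.8 in conditioned medium and 277.1 in regular medium, and so was bright throughout. The log2 difference of co-culture minus regular medium was 0.42, and 0.35 on its other bright probe set. A dim Col5a1 probe set had 90.9 in co-culture against 15.3 in conditioned medium and 5.5 in regular medium. Col5a2 had 89.8 in co-culture against 32.0 in conditioned medium and 2.2 in regular medium. This put Col5a2 at least 2.12-fold above both other arrays, with no bright signal.

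Type IV collagen was bright on every array. Col4a1 had 5093 in co-culture, 3837 in conditioned medium and 3956 in regular medium, a log2 difference of 0.36 for co-culture minus regular medium. Its other probe set, with 1301, 1078 and 1278 in that order, gave 0.03. Col4a2 had 2671 in co-culture, 1986 in conditioned medium and 2145 in regular medium, a difference of 0.32. Both chains thus had their highest signal in co-culture, and neither was called. Their differences from regular medium lay within the interquartile range of all measured genes, -0.26 to 0.42.

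These genes encode the alpha-1 and alpha-2 chains that assemble into 1 type IV molecule, and they are transcribed in opposite directions from adjoining starts. In the RefSeq table for GRCm38.p6 their annotated starts lie 21 bases apart. The Col4a2 start, on the + strand, has the lower coordinate, so the annotated transcripts overlap at their first bases. The window of 250 bases before to 50 bases after the Col4a2 start, chr8:11312555-11312854 on the + strand, is printed to show this arrangement. Capitals mark the 78 bases that the corresponding Col4a1 window, on the opposite strand, also covers.
Col4a2: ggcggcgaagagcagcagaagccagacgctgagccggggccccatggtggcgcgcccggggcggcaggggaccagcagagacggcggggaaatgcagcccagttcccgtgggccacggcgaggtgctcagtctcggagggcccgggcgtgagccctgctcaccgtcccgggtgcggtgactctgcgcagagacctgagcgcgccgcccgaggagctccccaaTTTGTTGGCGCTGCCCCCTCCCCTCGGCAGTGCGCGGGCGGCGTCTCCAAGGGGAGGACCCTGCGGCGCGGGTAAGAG

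Type VI collagen forms beaded microfibrils around cells. Col6a1 had 109.1 in co-culture, 57.1 in conditioned medium and 83.7 in regular medium. Col6a2 had 126.9 in co-culture, 147.5 in conditioned medium and 191.1 in regular medium, on a probe set whose suffix marks possible cross-hybridisation. Its other probe set had 44.5 in co-culture, with 21.5 and 17.1 under the floor in conditioned and regular medium. Col6a3 had 65.3 in co-culture, 30.4 in conditioned medium and 81.2 in regular medium. No chain of this collagen was called in any comparison.

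Of the proteoglycan group, biglycan stood apart from the other members. Bgn, a small leucine-rich proteoglycan that binds collagen and growth factors, had 181.5 in co-culture, 57.8 in conditioned medium and 12.3 in regular medium. It was at least 4.28-fold higher in co-culture than in regular medium and 3.14-fold higher than in conditioned medium. Both other Bgn probe sets were above the floor in co-culture, at 56.8 and 44.9, and under it in conditioned medium (2.9 and 6.5) and regular medium (4.4 and 2.7). Bgn was not called when its probe sets were averaged.

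Decorin and lumican are proteoglycans of the same family. Dcn had 35.2 in co-culture, 25.2 in conditioned medium and 8.8 in regular medium, and Lum had 43.8, 21.8 and 16.6 in that order. Mgp, whose protein inhibits calcification of matrix, had 38.9 in co-culture, 34.0 in conditioned medium and 7.6 in regular medium. These signals were under the floor or, for Lum in co-culture, barely over it, so no order among the arrays can be read from them.

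Fibulin-2, a glycoprotein of basement membranes and elastic fibres, was bright on every array. Fbln2 had 3139 in co-culture, 3692 in conditioned medium and 3933 in regular medium, a log2 difference of -0.33 for co-culture minus regular medium. Its other probe set had 97.2, 178.4 and 119.4 in that order, with a difference of -0.30.

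The lysyl oxidases cross-link collagen and elastin. Lox had 124.9 in co-culture, against 12.7 in conditioned medium and 13.0 in regular medium. This was at least 2.95-fold higher in co-culture than on either other array, but under the bright threshold, and both other Lox probe sets stayed at or below 14.9. Loxl1 had 61.9 in co-culture, 43.3 in conditioned medium and 94.5 in regular medium. Conditioned medium was thus 2.18-fold below regular medium for Loxl1, again with no bright signal.

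**Figure D3:**
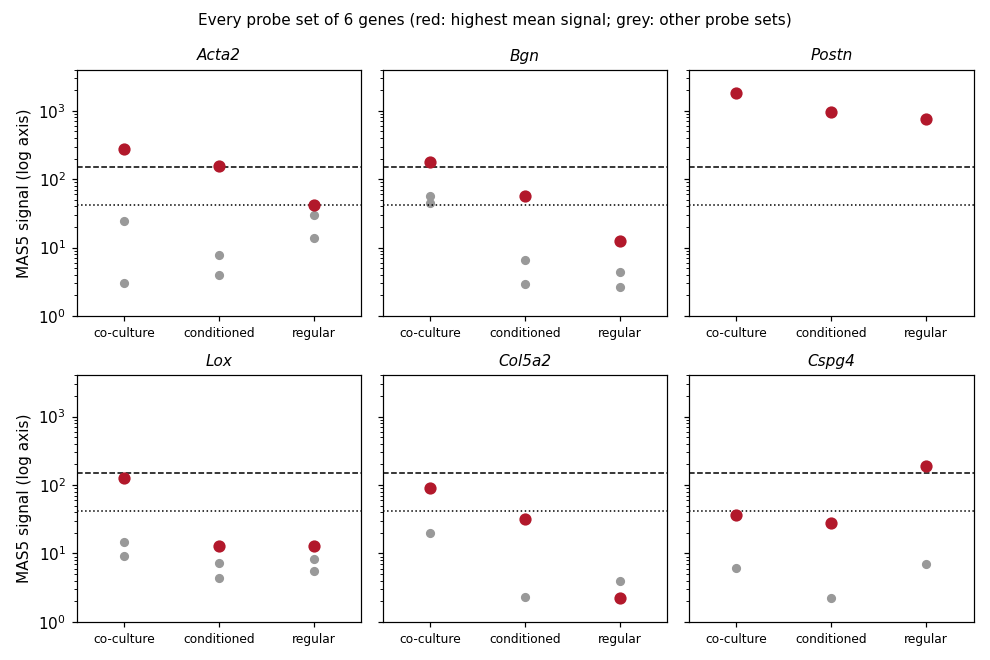
MAS5 signal on a log axis of every probe set of Acta2, Bgn, Postn, Lox, Col5a2 and Cspg4 on the co-culture, conditioned-medium and regular-medium arrays; red points are the probe set that is brightest on average, grey points the others, and the lines mark the floor of 42.4 and the bright threshold of 149.3. The 3 Bgn probe sets all lie above the floor in co-culture only or, for the brightest, also in conditioned medium, whereas the grey Acta2 and Cspg4 points stay below the floor throughout.

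Matricellular proteins modify adhesion and signalling rather than carry load, and 3 of 4 were bright in every culture. Postn, which encodes periostin, had 1803 in co-culture, 949.5 in conditioned medium and 765.6 in regular medium. It was 2.35-fold higher in co-culture than in regular medium and 1.90-fold above conditioned medium, on its only probe set. Conditioned medium lay 1.24-fold above regular medium.

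Tenascin-C ran the other way. Tnc had 249.9 in co-culture, 303.2 in conditioned medium and 442.7 in regular medium, a log2 difference of -0.82 for co-culture and -0.55 for conditioned medium against the same regular-medium array. Neither was called, and its other probe set was under the floor on every array.

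Thbs1, which encodes thrombospondin-1, an activator of latent TGF-beta and an inhibitor of angiogenesis, had 3433 in co-culture, 4179 in conditioned medium and 3970 in regular medium. A second Thbs1 probe set had 1454 in co-culture, 2489 in conditioned medium and 2586 in regular medium. Both were lowest in co-culture, with log2 differences from regular medium of -0.21 and -0.83. Thbs2, which encodes a related thrombospondin, had 52.6 in co-culture, 16.7 in conditioned medium and 19.1 in regular medium.

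The PDGF receptors transmit growth signals to stromal cells and pericytes. Pdgfra had 187.5 in co-culture, 158.9 in conditioned medium and 101.3 in regular medium, a 1.85-fold difference between co-culture and regular medium. Its other probe sets were highest in regular medium, with 53.9 in co-culture, 43.1 in conditioned medium and 86.8 in regular medium for the brighter of them. The probe sets of Pdgfra therefore gave opposite directions. Pdgfrb was under the floor on all arrays, at 24.3 in co-culture, 26.8 in conditioned medium and 11.1 in regular medium.

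Among surface proteins used to recognise MSCs, endoglin, CD73 and VCAM1 were bright in 4T1 cells in regular medium. Eng, which encodes a TGF-beta co-receptor, had 1477 in co-culture, 957.2 in conditioned medium and 937.8 in regular medium. Its probe sets gave log2 differences of 0.66 and 0.53 for co-culture minus regular medium. Conditioned medium and regular medium were alike on the brighter probe set, with a difference of 0.03.

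Nt5e, the gene of the ectoenzyme CD73, had 3186 in co-culture, 2186 in conditioned medium and 2157 in regular medium. A second bright probe set had 747.3 in co-culture, 1249 in conditioned medium and 1233 in regular medium, so that these probe sets differed by 1.28 on the log2 scale in the co-culture comparison. Vcam1, which encodes an adhesion molecule for leukocytes, had 3868 in co-culture, 2668 in conditioned medium and 2661 in regular medium. Its other probe sets had 1581 against 1834 and 538.3 against 711.6, co-culture against regular medium. For both genes the direction in co-culture depended on the probe set, although in each case the gene was bright on all arrays.

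Thy1 (CD90), a glycoprotein of fibroblasts and MSCs, had 6.7 in co-culture, 10.8 in conditioned medium and 31.1 in regular medium. Fap, a protease of activated fibroblasts, had 69.3 in co-culture, 20.3 in conditioned medium and 47.0 in regular medium. Mcam (CD146), an adhesion protein of pericytes and endothelium, had 120.1 in co-culture, 146.9 in conditioned medium and 176.6 in regular medium. Thy1 was thus under the floor on all arrays, Fap above it on 2, and Mcam bright in regular medium only, where it lay 1.47-fold above co-culture.

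Cspg4, which encodes the pericyte proteoglycan NG2, had 36.0 in co-culture, 27.8 in conditioned medium and 188.9 in regular medium. It was at least 4.46-fold lower in co-culture, and likewise in conditioned medium, than in regular medium, and both comparisons rest on the same regular-medium signal. Its other probe set lay at 7.0 or less on every array.

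Of the contractile genes, smooth muscle actin alone gave a bright signal. Acta2 had 278.3 in co-culture, 157.0 in conditioned medium and 42.4 in regular medium, the last at the floor. It was at least 6.56-fold higher in co-culture and at least 3.70-fold higher in conditioned medium, each against regular medium, and 1.77-fold above conditioned medium in co-culture. In conditioned medium against regular medium this was the only member called higher, 1 of 37 or 2.7%, beside 0.055% of all genes. Cspg4 was the only one called lower, 2.7% beside 0.154% of all genes.

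The bright Acta2 probe set carries a suffix that marks possible matches to other transcripts, and both other Acta2 probe sets stayed under the floor, at 30.4 or less. Of the other muscle actin genes Acta1, Actc1 and Actg2, none was bright, with 95.1 in co-culture, 142.6 in conditioned medium and 117.7 in regular medium for Acta1. Actc1 had 57.1 in co-culture, 33.2 in conditioned medium and 7.3 in regular medium, and Actg2 was under the floor on every array. The cytoplasmic actins Actb and Actg1 were bright throughout, with 24609 and 27242 in co-culture, 32437 and 34159 in conditioned medium and 29482 and 33979 in regular medium. On these probe sets, the brightest of each gene, both were lowest in co-culture. With every probe set that carries a letter suffix (such as _a_at, _s_at or _x_at) left out, Acta2 was no longer called. Whether other actin transcripts contribute to the Acta2 signal was not tested.

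Tagln and Cnn1, which encode the actin-binding proteins transgelin and calponin-1, were under the floor in all cultures. Tagln had 11.3 in co-culture, 30.7 in conditioned medium and 5.7 in regular medium, and Cnn1 had 1.3, 4.7 and 8.2. Myh11, smooth muscle myosin, lay at 15.8 or less. Des, which encodes the intermediate filament protein desmin, had 130.7 in co-culture, 78.3 in conditioned medium and 82.4 in regular medium. Acta2 was thus the only contractile gene called in any comparison.

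Smooth muscle genes are known targets of serum response factor, which binds CArG elements. The Acta2 window from 250 bases before to 50 bases after the annotated start, chr19:34255324-34255623 on the - strand of GRCm38.p6, is shown because Acta2 differed in both MSC-exposed cultures. Matches to CCNNNNNNGG with at least 5 of the 6 central letters A or T, a pattern that reads the same on both strands, are in capitals.
Acta2: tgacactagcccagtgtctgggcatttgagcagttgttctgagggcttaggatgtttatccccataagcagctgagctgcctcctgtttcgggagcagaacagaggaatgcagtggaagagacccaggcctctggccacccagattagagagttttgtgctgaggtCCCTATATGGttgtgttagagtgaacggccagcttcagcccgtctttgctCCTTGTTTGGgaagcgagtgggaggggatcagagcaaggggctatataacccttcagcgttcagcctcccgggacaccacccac
It holds 2 matches, CCCTATATGG and CCTTGTTTGG, starting 84 and 34 bases before the start. Of 32851 RefSeq windows of this length, 9.98% hold at least 1 match and 0.822% hold 2 or more. Windows were found for 25 of the 39 listed genes, and 6 of their 30 windows hold a match. A match in these letters is a description and not evidence of binding.

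Of the transcription factors, Prrx1, a regulator of limb and connective tissue mesenchyme, had 20.5 in co-culture, 11.1 in conditioned medium and 23.5 in regular medium. Pparg, which directs adipocyte differentiation, had 2.4, 9.7 and 4.7 in that order. Both were under the floor on every array.

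Conditioned medium and regular medium were close for most members. The median log2 difference of the 17 measured members was -0.02 (interquartile range -0.15 to 0.07), beside 0.01 for all measured genes. Scaling the arrays to a common median gave 0.13 for the members and 0.17 for all measured genes, a shift common to both. With that scaling and quantile normalization the sign of this difference held for 11 of the 17 members only. Co-culture minus conditioned medium had a median of 0.43, beside 0.07 for all measured genes. In that comparison Bgn was the only member called higher, 1 of 37 or 2.7%, beside 3.0% of all genes. None was called lower, 0 of 37, beside 1.34% of all genes. Comparisons that share an array are not independent of each other.

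Markers of other cells were read on the same arrays. Of 12 epithelial markers 11 were bright in every culture, beside 47.6% of all named genes. The 12 markers had summed signals of 99381 in co-culture, 79343 in conditioned medium and 76908 in regular medium. Among 11 MSC surface and niche markers with a probe set, 6 were bright, all of them already in regular medium, a share of 54.5% beside 49.5% of all named genes. None was called in co-culture against regular medium, beside 3.0% of all genes called higher and 1.42% called lower. Their summed signals were 19593 in co-culture, 26815 in conditioned medium and 25572 in regular medium. Of the MSC list, Alcam, Cd9 and Cd44, which encode surface proteins, had log2 differences of -0.73, -0.72 and -0.34 for co-culture minus regular medium, and the mesenchymal transcription factor gene Twist1 had 0.77. Among the epithelial genes Cldn4, Cdh1 and Krt7 had 0.81, 0.68 and 0.61, and Krt14 had -1.47. Krt14 was the only gene of these lists called in that comparison, 1 of 12 epithelial markers, beside 1.42% of all genes called lower. The leukocyte list had 3 measured genes of 8, with differences of -0.48 for Csf1r, 0.44 for Cd68 and 0.27 for Cd14. The endothelial gene Egfl7 had 0.01, and the skeletal genes Sox9 and Sp7 had 0.52 and -0.23.

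Over the whole stromal list, 11 of 37 members lay at or below the floor in co-culture, 29.7% beside 34.9% of all named genes, among them Col1a1, Dcn, Mgp, Thy1, Pdgfrb and Prrx1. In regular medium 16 members did, 43.2% beside 32.2%. More members were thus above the floor in co-culture than in regular medium. The members above the floor in co-culture but not in regular medium were Col5a2, Lum, Bgn, Lox, Acta2 and Thbs2, 6 of 37 or 16.2%, beside 3.64% of all named genes. Cspg4 alone was above it in regular medium but not in co-culture, 2.7% beside 6.29%. These tallies were chosen after the values were seen, and Lum was over the floor by 1.03-fold only. In whole-population RNA, few cells of a type and little RNA per cell cannot be told apart. What part RNA of other cells had in the Bgn, Acta2 or Postn signals was not tested.

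Lists of other genes of matrix assembly, apart from the members, were read in the same way. In the elastic fibre list 4 of 14 genes were measured with a median log2 difference of 0.85 for co-culture minus regular medium. All 4 encode members of the latent TGF-beta binding protein family. Ltbp3 had 7064 in co-culture, 2602 in conditioned medium and 2475 in regular medium, 2.85-fold higher in co-culture than in regular medium. Ltbp1 had 2911 in co-culture, 1107 in conditioned medium and 1326 in regular medium, 2.2-fold higher. These 2 of 14 genes make 14.3%, beside 3.0% of all genes called higher. Ltbp4 and Ltbp2 had log2 differences of 0.57 and 0.11. Elastin itself was never bright, with an Eln signal of 50.6 in co-culture, 90.2 in conditioned medium and 117.1 in regular medium.

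Of 19 basement membrane partners 9 were measured and 2 were called higher in co-culture than in regular medium, 10.5% beside 3.0% of all named genes, with a list median of 0.51 beside 0.07 for all measured genes. Col18a1, the source of endostatin, had 1864 in co-culture, 882.5 in conditioned medium and 870.1 in regular medium, 2.14-fold higher. Lama5, a laminin chain, had 2821 in co-culture, 1175 in conditioned medium and 1320 in regular medium, also 2.14-fold higher. Both had a further bright probe set in the same direction, with log2 differences of 0.95 and 1.04. Col4a5 had a difference of 0.76, and 0.35 on its other bright probe set, and the proteoglycan gene Agrn had 0.69. Lama5, Col18a1, Col4a5 and Agrn were all bright in regular medium already.

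Of 21 genes that fold and process collagen 17 were measured, 1 was called higher in co-culture (4.76%, beside 3.0% of all genes) and none lower (beside 1.42%), with a median of 0.22. Pcolce, which enhances cleavage of the procollagen C-propeptide, had 1706 in co-culture, 641.7 in conditioned medium and 608.3 in regular medium, 2.80-fold higher, and its other bright probe set gave a log2 difference of 1.47. The prolyl and lysyl hydroxylase genes P3h2, P4ha2 and Plod1 had differences of 0.87, 0.68 and 0.58.

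Among 11 other collagens 4 were measured, beside 52.0% of all named genes, with a median of 0.17. None was called in co-culture against regular medium, beside 3.0% of all genes called higher and 1.42% called lower. Col8a1 had the largest difference, 0.72, but its further probe sets gave 0.92 and -0.26. Col7a1, Col16a1 and Col12a1 had 0.28, 0.06 and -0.07. Of 15 other proteoglycans and adhesive glycoproteins 5 were measured, with a median of 0.12, and Sparc was called higher (1 of 15, 6.67%, beside 3.0% of all genes), with 2832 in co-culture, 1472 in conditioned medium and 1390 in regular medium. Its other bright probe set gave 0.45. Ccn1 and Ccn2, which encode adhesive proteins that answer to cell tension and growth factors, had log2 differences of -0.81 and -0.70, and Matn2 had 0.28.

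Of 16 serum response and contractile genes 8 were measured, and Mrtfa was the only one called, 6.25% beside 3.0% of all genes called higher. Mrtfa, a coactivator of serum response factor, had 1314 in co-culture, 576.0 in conditioned medium and 515.0 in regular medium, 2.55-fold higher in co-culture. Cnn2, Srf and Smtn had log2 differences of 0.91, 0.77 and -0.62. The list median of 0.18 lay near that of all measured genes.

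**Figure D4:**
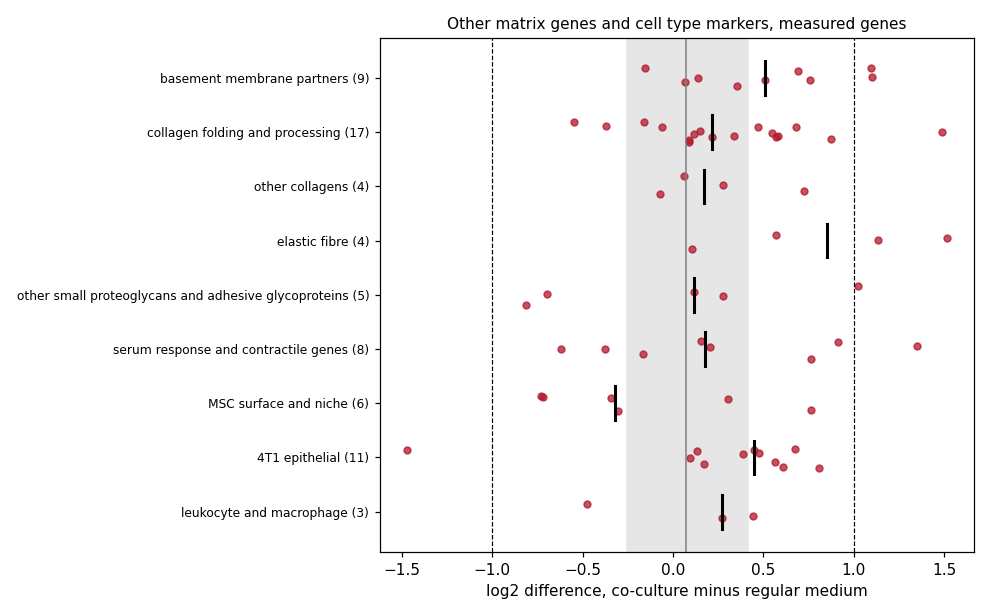
Log2 difference of co-culture minus regular medium for the measured genes of the lists of matrix genes and cell type markers with at least 3 measured genes (number in brackets). Points are genes, black bars list medians, grey shading the interquartile range of all measured genes and dashed lines 2-fold; the elastic fibre list holds 2 genes past 2-fold, Ltbp1 and Ltbp3, and the MSC surface and niche list none.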

How the data were processed

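The deposited values are linear intensity values for 45037 probe sets, made by the authors with MAS5, per the submitters' processing notes, with the version and scaling target not given in the sources used here. They were used unscaled, since the 2%-trimmed means of the 3 arrays lay between 497.7 and 498.0. The platform annotation names a single gene for 34945 probe sets, several genes for 932 and no gene for 9160, and symbols were updated through the gene ID. The floor, bright threshold and 2-fold rule are those given above, and a signal level is not a detection call. Alternatives covered scaling, floor, bright threshold, probe set choice and fold rule. The members, lists and rules were chosen with earlier results of these data known. Every member is described; of the wider lists, up to 4 measured genes with the largest co-culture difference and every called gene are named. Acta1, Actc1, Actg2, Actb, Actg1 and Eln fall outside this rule and were chosen after their values were seen. The calling step was tested on simulated data. The genes changed there all started well above the bright threshold, so that test does not cover calls with a signal at the floor, as for Bgn, Acta2 and Cspg4. Promoter sequences are from RefSeq for GRCm38.p6. The work was done in Python 3.11.15 with pandas 2.3.3, NumPy 2.4.6, SciPy 1.17.1 and Matplotlib 3.10.9.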

Additional observations from a re-analysis of the deposited data

How the results depend on the processing

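No paired analysis was possible because each condition had 1 array. Most counts moved with a stricter or looser bright threshold (80th or 50th percentile), no threshold, a higher floor (60th percentile) or a 1.5-fold rule. Members higher in co-culture than in regular medium numbered 3 (beside 3.0% of all genes), but 5 with median scaling (4.4%) and with the looser threshold or none (3.69% each), 6 at 1.5-fold (8.72%), and 1 (Postn) with the stricter threshold (1.67%) or the higher floor (2.53%). Averaging all probe sets gave 2, Col5a1 and Postn (2.15%). Leaving out every probe set with a letter suffix gave 2, without Acta2 (2.81%), and 3-fold gave 2, without Postn (0.901%). Members lower in co-culture numbered 0 with the higher floor (beside 1.0% of all genes), the stricter threshold (0.726%) or averaged probe sets (1.79%). At 1.5-fold they numbered 3 (5.09%), in place of 1 (1.42%). For conditioned medium against regular medium the higher member, Acta2, was lost (0) with the higher floor (beside 0.011% of all genes) or the stricter threshold (0.0055%). It was also lost with averaged probe sets (0.159%) or letter-suffixed probe sets left out (0.0482%), and 1.5-fold gave 2 (0.379%). The lower member, Cspg4, was lost (0) with the higher floor or the stricter threshold (0.0055% of all genes each) or averaged probe sets (0.324%). The looser threshold or none gave 2 (1.1% each). Members higher in co-culture than in conditioned medium numbered 0 with the higher floor (2.44% of all genes) or stricter threshold (1.55%). They numbered 3 with the looser threshold or none (3.85% each) and 5 at 1.5-fold (8.68%), in place of 1 (3.0%). Members bright in co-culture only numbered 0 with the higher floor (0.324% of all genes) or stricter threshold (0.786%). They numbered 3 (Col5a2, Bgn and Lox) with the looser one (0.588%) and 2 (Col1a2 and Bgn) at 1.5-fold (1.19%), in place of 1 (0.605%). With averaged probe sets Col5a1 took the place of Bgn in both of these counts, which stayed at 1 (2.31% and 0.588% of all genes). Members bright in regular medium numbered 8 with the stricter threshold (beside 29.4% of all genes) and 19 with the looser one (57.7%), in place of 13. They numbered 9 with averaged probe sets (42.9%) or letter-suffixed ones left out (45.7%). The latter step left Col6a2, Eng, Mcam and Pparg with no probe set, and Fbln2 without the one that was bright in regular medium. Fewer members than 37 were thus counted there. Counts of bright members have no value without a threshold. The median for co-culture minus regular medium was 0.56 with median scaling, 0.00 over all members and 0.26 with averaged probe sets, in place of 0.42. That for conditioned minus regular medium was 0.13 with median scaling (all measured genes 0.17) in place of -0.02, and that for co-culture minus conditioned medium was 0.54 with the looser threshold and 0.24 over all members in place of 0.43. The cause of these moves was not tested. Median scaling moved the median of all measured genes for co-culture minus regular medium from 0.07 to 0.21. Among all genes called, it moved the share called higher to 82.7% for co-culture and 58.1% for conditioned medium, each against regular medium, in place of 67.8% and 26.3%, and quantile normalization gave 37.5% for conditioned medium. Over 4561 genes with several bright probe sets, the brightest pair disagreed by a median of 0.31 on the log2 scale for co-culture minus regular medium.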

Other observations

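Of the 10 stromal members that were above the floor somewhere but bright nowhere, 7 had their highest signal in co-culture, namely Lox, Des, Col6a1, Col5a2, Fap, Thbs2 and Lum, and 3 in regular medium, namely Loxl1, Col6a3 and Col3a1. That is 70.0% and 30.0% of the 10, beside 31.3% and 46.1% of the 3815 named genes in the same range. The other Des probe set ran the opposite way, with 36.4 in co-culture against 57.8 in regular medium. This tally was chosen after the values were seen, and none of these signals met the bright threshold. Lox, Col5a2, Thbs2 and Lum entered the range only through their co-culture signal, so their place in the tally was fixed by the filter. Lum (43.8 in co-culture) and Col3a1 (45.7 in co-culture, 51.6 in regular medium) lay close to the floor of 42.4. The tally is therefore a description and no support for a rise in co-culture. The basal keratin Krt14 was the 1 epithelial marker of 12 called in any comparison, 2.77-fold lower in co-culture than in regular medium. It had 439.1 against 1218, beside 1263 in conditioned medium. Of all genes 1.42% were called lower in co-culture than in regular medium, and 1.34% lower than in conditioned medium.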
